A study of Mus musculus with 16 samples.

Results

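Translational efficiency (TE), the amount of ribosome footprint per amount of mRNA, was compared between mouse embryonic stem (ES) cells that carry no intact Nat1 gene (Nat1-/-) and cells that keep 1 intact copy (Nat1+/-). The comparison used 12 of the 16 libraries, a ribosome-protected fragment (RPF, or footprint) library and a total RNA library from each of 6 cultures. The Nat1-/- cultures were B12, B2 and C3 and the Nat1+/- cultures were A7, B4 and C1 (replicates 1, 2 and 3 in each genotype). Each was listed as a line of its own with 1 culture, so the spread within a genotype holds differences between lines as well as handling. The remaining 4 libraries came from 2 cultures of the wild-type (WT) line RF8, WTex1 and WTex2, whose values are set beside the others and which share in the estimate of spread. All cultures were grown with LIF, the cytokine that keeps mouse ES cells undifferentiated, on gelatin. How the alleles were made, and from which parental cells the targeted lines came, the labels do not state. TE was computed per culture as log2((RPF + 1)/(total RNA + 1)) from the 2 libraries of that culture. Of 21977 genes in the table, 12933 (58.8%) had a mean of at least 10 normalised reads in both assays and were tested.

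Nat1 is an older name of Eif4g2, whose protein is also called DAP5 or p97. The protein resembles the scaffold eIF4G, which bridges the mRNA cap complex and the small ribosomal subunit, but it lacks the part that binds the cap-binding protein eIF4E. It binds the helicase eIF4A and the factor eIF3, and is studied as a factor for initiation on mRNAs that depend less on the usual cap complex. Footprints are the mRNA pieces that a ribosome shields from nuclease, so a gene's footprints rise with the amount of its mRNA as well as with how often each mRNA is translated. Dividing by total RNA separates the second quantity from the first. Because both assays were scaled within themselves, TE has no absolute zero. Only differences between cultures for the same gene are read here.

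RPF library depth ranged from 17.5 to 23.8 M reads (M, mega-reads). The depth of total RNA was 13.2 to 14.8 M in Nat1+/-, 42.5, 16.4 and 14.2 M in B12, B2 and C3, and 42.6 and 33.6 M in WT, so depth moved partly with genotype. On the first principal component of TE (35.8% of the variance) the Nat1+/- cultures scored 29.4, 23.1 and 24.2. B12, B2 and C3 scored -36.5, -25.7 and -1.7, and WT scored -13.7 and 0.9, so C3 lay apart from the other Nat1-/- cultures and beside WT. The 7 ES cell markers summed to 132485 to 147351 normalised reads in Nat1-/- total RNA and to 83048 to 95985 in Nat1+/-, with none at 0. Sums of the 4 neural markers were 686 to 867 against 1214 to 2035. The 5 trophoblast markers summed to 683 to 722 against 591 to 2286, the 5 primitive endoderm markers to 74.6 to 117 against 60.4 to 141, and the 11 fibroblast markers to 15099 to 41909 against 29229 to 51058, with Postn at 0 in all 3 Nat1-/- libraries. Single members did not all move with their sum (log2 RNA differences, called by limma at an adjusted p under 0.05). Of the neural markers, Sox1 was higher (2.18) and Map2 (-2.06), Pax6 (-1.64) and Tubb3 (-1.43) were lower. On few reads in the lower genotype, Sox7 was higher (3.07) and Dab2 (-3.73), Acta2 (-4.50) and Col1a2 (-3.33) were lower. Vim was not called (-0.13). In bulk RNA, fewer cells of a type and less RNA per cell cannot be told apart, and the part of these differences in the TE results was not tested.

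Eif4g2 itself had the most negative TE difference of the genes named here. In the order A7, B4, C1 its TE was -0.58, -0.67 and -0.55, and in the order B12, B2, C3 it was -3.49, -2.98 and -2.46, with -1.44 and -0.96 in WT. The Nat1-/- values all lay below the others, by -2.38 ± 0.26 (log2 difference from Nat1+/- ± SE; adjusted p = 0.0124, limma; exact permutation test, two-sided, p = 0.1, which is the lowest value possible with 3 cultures a side). Its footprints were 10261, 7608 and 7275 normalised reads in Nat1+/- and 1089, 1114 and 922 in Nat1-/-, which separated the genotypes. Its total RNA was 15335, 12092 and 10674 against 12249, 8795 and 5085, which overlapped and was not called, so the RNA libraries alone do not check the labels.

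TE differed between Nat1-/- and Nat1+/- cells in both directions. The genes called lower in Nat1-/- included members of the WNT, PI3K and RAS pathways and chromatin regulators, and those called higher included ribosomal protein genes, other TOP mRNAs and chaperones. Of the 12933 genes, 1275 (9.86%) were called at an adjusted p under 0.05 (limma on per-culture TE, Benjamini-Hochberg). TE was lower in Nat1-/- for 829 genes (6.41%) and higher for 446 (3.45%). The difference was at least 2-fold for 186 of the lower and 57 of the higher genes. For all 1275 called genes the 3 Nat1-/- values lay entirely below or above the 3 Nat1+/- values. Over all genes tested such separation was seen for 36.9%, 18.4% on the lower and 18.5% on the higher side. The median difference over all genes was 0.01 on the log2 scale, and the 5th and 95th percentiles were -0.76 and 0.63. Relative to each gene's Nat1+/- mean, the genes called lower had medians of -0.83, -0.78 and -0.59 in B12, B2 and C3. In WT these were -0.42 and -0.32. The genes called higher had 0.63, 0.57 and 0.48, with 0.40 and 0.36 in WT. WT thus lay between the mutants in the median of these genes. They were chosen by their difference from the same Nat1+/- values, so this place of WT is partly built in. For single genes WT varied. It lay beside Nat1-/- for Gsk3a, Pou3f1, Klf2, Tbx3, Sall4, Eomes, Gata4, Tgfbr2, Pias3, Setd1a and Zfp36l2, among others. It lay beside Nat1+/- for Mark3, Smarca5, Rasa1, Jak2, Spry1 and Cdk13, among others.

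The number of calls rested on every culture of the comparison. Limma called 0 genes without A7, 3 without B4, 0 without C1, 328 without B12, 0 without B2 and 2013 without C3, while 2923, 3223, 3028, 3297, 3150 and 4433 genes had an unadjusted p under 0.05, against 3960 with all cultures. In edgeR's quasi-likelihood test on the recovered reads with a term for each culture, 1995 genes were called, and 795, 1052, 855, 1345, 882 and 2854 without A7, B4, C1, B12, B2 and C3. Of the genes called by limma, 483 lower ones (58.3%) and 148 higher ones (33.2%) were called in all 7 edgeR fits. Of 140 called genes chosen by a fixed rule for naming, 99 were called in all 7. Eomes, Plagl1 and Vrtn were called in none, Myh6 and Tgfb2 in 1, Jak2, Ndufa10, Pias3, Spry1, Tgfbr2 and Txlnb in 2, and Cox4i1, Gata4, Prss23, Psmd7, Wnk2 and Zfp213 in 3. Treating the libraries as unpaired, instead of as 2 libraries of 1 culture, left 75 calls, 71 lower and 4 higher. With total RNA and RPF rescaled by TMM the split was 1127 lower and 244 higher, and with equal library sums 1015 lower and 279 higher, so the share of higher calls was 17.8% and 21.6% against 35% with the deposited scaling.

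**Figure D1:**
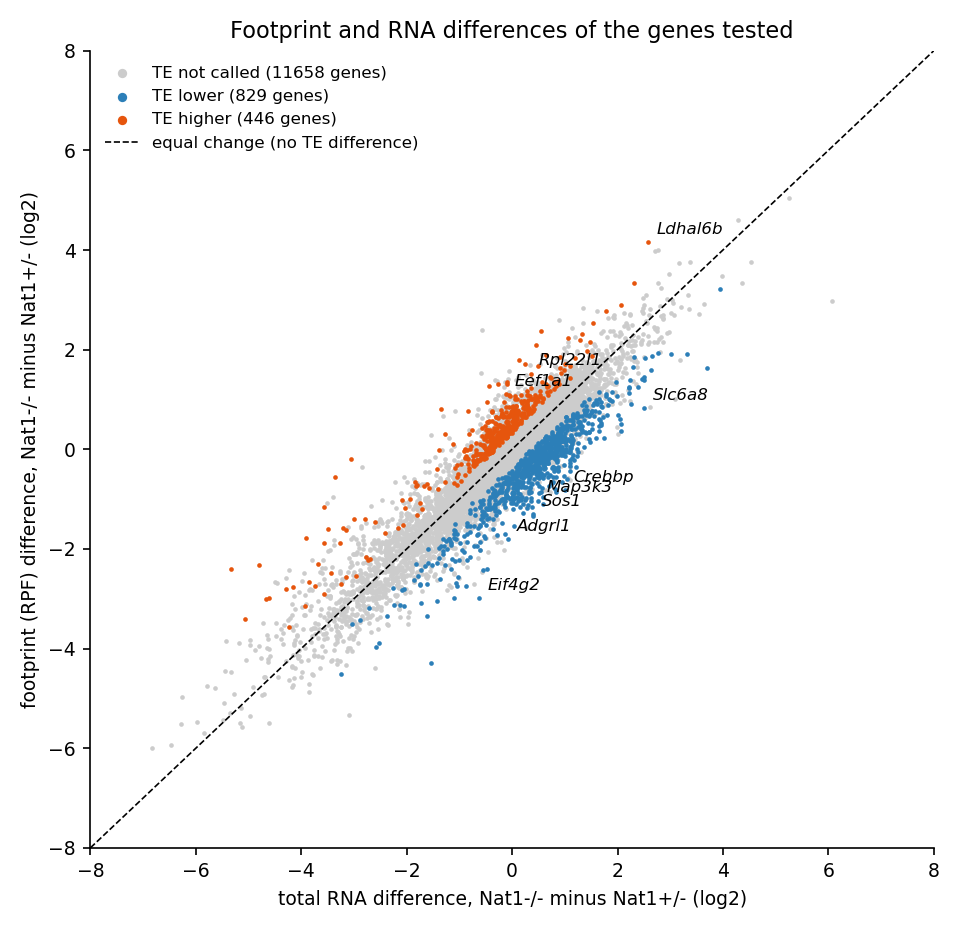
Difference in footprints (vertical, log2) against difference in total RNA (horizontal, log2), Nat1-/- minus Nat1+/-, with 1 point per gene tested. Genes called for TE (829 lower in blue, 446 higher in orange) lie on either side of the dashed line of equal change, and 11658 genes not called are grey.

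The footprint and RNA levels behind the TE calls moved in several combinations. Across all genes tested, footprints were called higher for 17.8% and lower for 18.6%, and total RNA higher for 20.8% and lower for 20.0%. Among the 829 genes with lower TE, the most frequent combination was more mRNA with no called difference in footprints (310 genes, 37.4%). Fewer footprints with no called RNA difference followed (179 genes, 21.6%). In 162 genes (19.5%) neither assay alone was called, in 87 (10.5%) both were lower, in 69 (8.32%) both were higher and in 22 (2.65%) footprints were lower while RNA was higher. Among the 446 genes with higher TE, neither assay was called in 137 (30.7%), only footprints were higher in 132 (29.6%) and only RNA was lower in 100 (22.4%). Both were higher in 39 (8.74%), both lower in 36 (8.07%), and footprints higher with RNA lower in 2 (0.448%). A large part of the lower-TE genes thus had raised mRNA without a called rise in footprints. TE and total RNA share the same RNA libraries, so an error in an RNA value moves both in opposite directions.

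**Figure D2:**
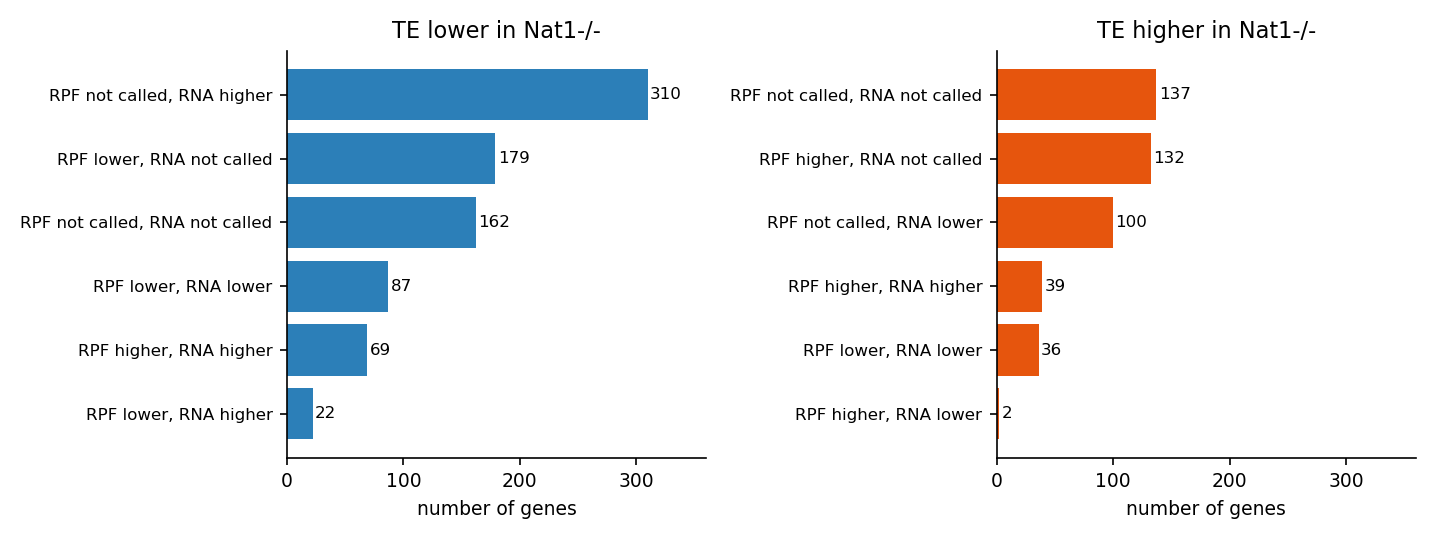
Number of genes by which of the 2 assays was called alongside the TE call, for genes with lower TE (left) and higher TE (right) in Nat1-/-. The longest bar on the left is higher RNA with no footprint call (310 genes) and on the right neither assay called (137 genes).

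Sos1 and Map3k3 were set as genes of interest because earlier work on Eif4g2 in ES cells tied them to it. Sos1 encodes the exchange factor that loads RAS with GTP after receptor activation. Its footprints were 887, 900.2 and 789 normalised reads in Nat1+/- and 322, 335 and 387 in Nat1-/-, with cultures in the same order here and throughout. Its total RNA was 1443, 1329 and 1444 in Nat1+/- and 2220, 1692 and 1689 in Nat1-/-. Footprints were thus lowest and RNA highest in the Nat1-/- cultures, without overlap in either assay. TE of Sos1 was -0.70, -0.56 and -0.87 in Nat1+/-, -2.78, -2.33 and -2.12 in Nat1-/- and -1.31 and -0.92 in WT, a difference between the mutants of -1.70 ± 0.20 (adjusted p = 0.0124; exact permutation p = 0.1). Map3k3 encodes MEKK3, a kinase that feeds into the ERK5, p38 and JNK branches. Its TE was -1.72, -1.81 and -1.86 in Nat1+/-, -3.32, -3.47 and -3.14 in Nat1-/- and -2.19 and -2.20 in WT, a difference of -1.51 ± 0.13 (adjusted p = 0.0119; exact permutation p = 0.1). Its footprints fell by 1.03 and its RNA was 0.49 higher on the log2 scale, both called. Sos1 and Map3k3 were called in all 7 edgeR fits and also without the pairing of libraries.

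Of the 10 tested mRNAs tied to Eif4g2 by earlier work, 4 had lower TE and none higher, and the median was 0.00. The other 2 with lower TE were Wnk1, a kinase that regulates ion transport, and Apaf1, the scaffold of the apoptosome. Apaf1 had TE values of -0.58, -0.61 and -0.66 in Nat1+/- and -1.66, -1.55 and -1.36 in Nat1-/-, a difference of -0.91 ± 0.11 (adjusted p = 0.0124). The list was drawn up with these data known and is no independent evidence of a direction.

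**Figure D3:**
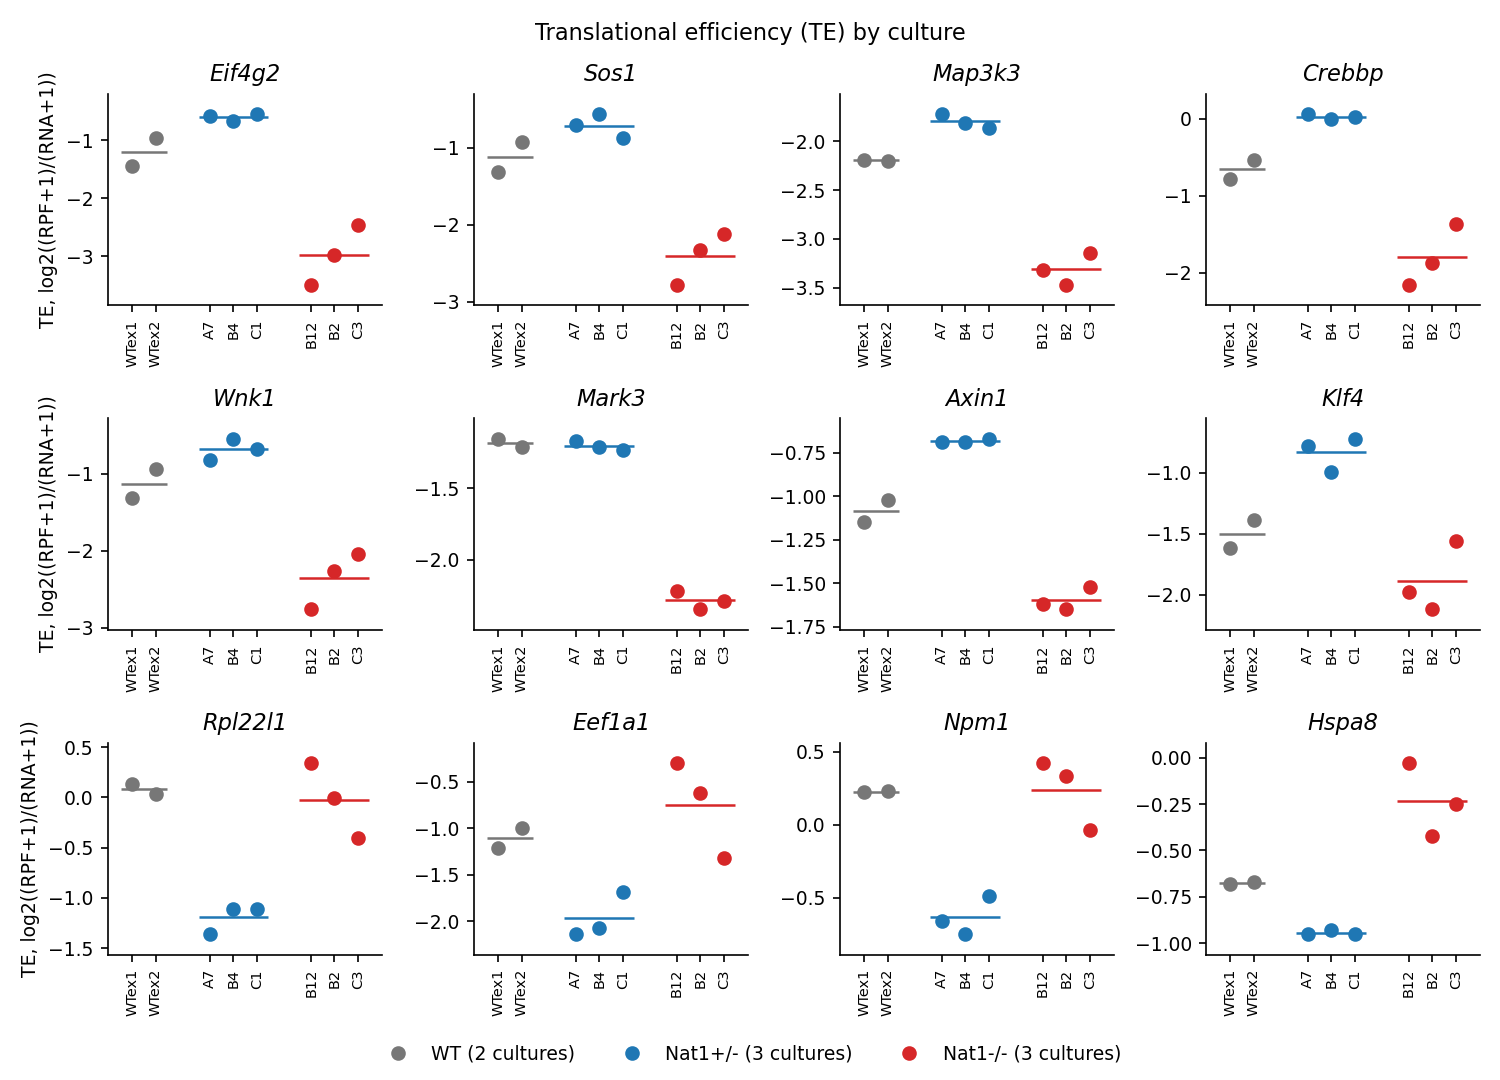
TE (log2 of RPF over total RNA, vertical) of 12 genes in each of the 8 cultures (horizontal), with WT grey, Nat1+/- blue and Nat1-/- red and a line at each group mean. The vertical scale differs between panels, and in every panel the 3 Nat1-/- points lie on 1 side of the 3 Nat1+/- points.

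Kinases of the Mark and Wnk families had the lowest median TE difference of the lists. Mark kinases phosphorylate microtubule-associated and polarity proteins. Of 8 family members tested, 4 had lower TE (50%, against 6.41% of all genes) and the median difference was -0.77. For Mark3, TE was -1.17, -1.21 and -1.23 in Nat1+/-, -2.22, -2.35 and -2.29 in Nat1-/- and -1.15 and -1.21 in WT, so that WT and Nat1+/- lay together and only the Nat1-/- cultures were low (-1.08 ± 0.10, adjusted p = 0.0119). Mark3 footprints were 1765, 1687 and 1755 in Nat1+/- against 1159, 1031 and 1029 in Nat1-/-, while its RNA was 3974, 3914 and 4113 against 5398, 5245 and 5020.0 normalised reads. Wnk1 differed by -1.68 ± 0.20 (adjusted p = 0.0124), with footprints of 5109, 6126 and 5113 in Nat1+/- against 2195, 2685 and 2805 in Nat1-/-. Mark4 (-0.95 ± 0.17, adjusted p = 0.0255) and Wnk2 (-0.85 ± 0.19, adjusted p = 0.0365) were also called.

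Within the receptor, RAS and MAPK cascade, 6 of 36 genes (16.7%, against 6.41% of all genes) had lower TE and none higher, with a median of -0.25. By culture, the list median relative to each gene's Nat1+/- mean was -0.39, -0.33 and -0.15 in B12, B2 and C3. In WT it was -0.26 and -0.17, below C3. The called genes included Sos1, its relative Sos2, the RAS GTPase-activating protein Rasa1, the FGF receptor adaptor Frs2 and the small GTPase Rras2. Among kinases of the MAP3K, MAP2K and MAPK branches 4 of 34 (11.8%) had lower TE, median -0.20. Besides Map3k3 these were Map3k9 (-1.39 ± 0.17, adjusted p = 0.0124), Map4k3 (-0.56 ± 0.12) and Map4k4 (-0.41 ± 0.10). Of 19 genes that respond to ERK signalling, 3 (15.8%) had lower TE. They were Spred1 (-1.42 ± 0.26), which encodes an inhibitor of RAS signalling, the phosphatase gene Dusp1 (-0.49 ± 0.10) and the inhibitor gene Spry1 (-0.47 ± 0.11). The immediate-early gene Ier2 had higher TE (0.66 ± 0.11, adjusted p = 0.0211).

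The WNT pathway had the largest number of lower calls among the signalling lists. Of 31 genes, 12 (38.7%, against 6.41% of all genes) had lower TE, none higher, and the median was -0.42. Relative to each gene's Nat1+/- mean, the list median was -0.55, -0.45 and -0.15 in B12, B2 and C3. It was -0.26 in both WT cultures, below C3. In this pathway a complex of Axin, Apc and the kinases Gsk3a and Gsk3b marks β-catenin for destruction until WNT binds a Frizzled receptor. All of these parts were among the called genes, which were Axin1, Apc, Gsk3a, Gsk3b, Csnk1d and Tnks2 of the destruction complex and its regulators, the receptor genes Fzd2, Fzd5 and Fzd7, the receptor ligase gene Znrf3 and the transcription factor genes Tcf7 and Tcf7l1. Axin1 footprints were 784, 829 and 849 in Nat1+/- and 1071, 901 and 897 in Nat1-/-, and its RNA was 1265, 1339 and 1356 against 3294, 2823 and 2569. The RNA difference was 1.13 on the log2 scale, with no call for footprints, giving TE of -0.69, -0.69 and -0.67 against -1.62, -1.65 and -1.52, with -1.15 and -1.02 in WT. The difference was -0.91 ± 0.09 (adjusted p = 0.0124). Gsk3a showed the same combination, with footprints of 1248, 1121 and 1115 against 1301, 1073 and 1107 and RNA of 838, 813 and 858 against 1986, 1604 and 1337 (TE -0.96 ± 0.12, adjusted p = 0.0126). Its TE was 0.57, 0.46 and 0.38 in Nat1+/- and -0.61, -0.58 and -0.27 in Nat1-/-. In WT it was -0.58 and -0.41, so that only the Nat1+/- cultures stood apart. Fzd2 differed in kind, since both footprints (-2.63) and RNA (-1.87) were lower on the log2 scale. In limma 0 genes of the list were called lower without A7, B4, C1 or B2, 6 without B12 and 13 without C3, and 3 without the pairing of libraries. Between 10 and 16 were called lower in each of the 7 edgeR fits.

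The mTOR and PI3K list had 9 of 32 genes (28.1%, against 6.41% of all genes) with lower TE and 1 higher, with a median of -0.21. By culture, the list median relative to each gene's Nat1+/- mean was -0.33, -0.21 and -0.17 in B12, B2 and C3. In WT it was -0.25 and -0.12, on either side of C3. Pik3ca, the catalytic PI3K subunit, had footprints of 434, 486 and 492 in Nat1+/- and 191, 242 and 288 in Nat1-/-. Its RNA was 1592, 1516 and 1743 against 1969, 2017 and 2218, so footprints fell while RNA rose, and TE differed by -1.34 ± 0.17 (adjusted p = 0.0126). The transcription factor gene Foxo3 (-0.64 ± 0.10) and the regulatory subunit gene Pik3r2 (-0.89 ± 0.15) were also called, as were Akt1, Rptor, Tsc2, Rps6ka1 and Rps6ka3. The gene with higher TE was Nprl2, a negative regulator of mTORC1 (0.49, adjusted p = 0.0481). In BMP, Nodal and TGF-β signalling 5 of 26 genes (19.2%) had lower TE, median -0.21. By culture, the list median relative to Nat1+/- was -0.41, -0.21 and -0.06 in B12, B2 and C3. In WT it was -0.31 and -0.09, below C3. The called genes were Smad4, the shared mediator of the pathway (-0.88 ± 0.12, adjusted p = 0.0154), Smad3, and the receptor genes Tgfbr2, Acvr2b and Acvr1b. Tgfbr2 rested on few reads in A7, with 6.51 normalised footprints and 6.53 in RNA. The ubiquitin ligase genes Smurf1 (-0.95 ± 0.11) and Smurf2 (-0.85 ± 0.11) act on BMP and TGF-β signalling. They were the 2 called of 22 ligases with a HECT or RBR domain (9.09%, not far above 6.41%, median -0.16). Of 15 genes of the LIF receptor and STAT3 pathway, 4 (26.7%) had lower TE, median -0.18. By culture, the list median relative to Nat1+/- was -0.22, -0.21 and -0.05 in B12, B2 and C3. In WT it was -0.18 and -0.14, below C3. The called genes were the receptor gene Lifr (-0.78 ± 0.18), the kinase gene Jak2 (-0.65 ± 0.15), Pias3 (-0.56 ± 0.12) and the feedback inhibitor gene Socs3 (-0.55 ± 0.14).

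Some chromatin regulators had lower TE, as did 6.41% of all genes. Of 19 histone acetyltransferases and partners, 4 (21.1%) had lower TE and none higher, with a median of -0.32. Relative to each gene's Nat1+/- mean, the list median was -0.53, -0.36 and -0.14 in B12, B2 and C3. In WT it was -0.40 and -0.25, below C3. Crebbp, which encodes the acetyltransferase CBP, had footprints of 2056, 1964 and 1942 in Nat1+/- and 1167, 1121 and 1078 in Nat1-/-, and RNA of 1966, 1964 and 1910.0 against 5222, 4087 and 2788. TE was 0.06, 0.00 and 0.02 in Nat1+/-, -2.16, -1.87 and -1.37 in Nat1-/- and -0.78 and -0.54 in WT. The difference of -1.83 ± 0.19 (adjusted p = 0.0124) was the third most negative among the genes named by size, after Eif4g2 and Tgfb2. Its paralogue Ep300 had footprints of 3026, 2999 and 3087 against 2919, 2738 and 2757, not called, and RNA of 3453, 3361 and 3227 against 8395, 6595 and 5111, giving -1.09 ± 0.18 (adjusted p = 0.0205). Brd1 (-0.77 ± 0.12) and Brpf3 (-1.07 ± 0.25) were the other two. Among 31 histone methyltransferases and demethylases 4 (12.9%) had lower TE, median -0.13, led by Kmt2d (-1.53 ± 0.22, adjusted p = 0.0170), an H3K4 methyltransferase, with Kdm2a, Dot1l and Setd1a. Of 30 polycomb genes 3 (10%, not far above the share of all genes) had lower TE. They were Bmi1 (-1.44 ± 0.25), Pcgf2 (-1.36 ± 0.26) and Phc2 (-0.99 ± 0.17), of polycomb repressive complex 1. Bmi1 rested on few footprints, 36.87, 36.45 and 35.69 normalised reads in Nat1+/- against 16.2, 20.43 and 29.62. Ezh1 of complex 2 had higher TE (0.50 ± 0.12). Of 25 chromatin remodellers 5 (20%) had lower TE although the median was 0.01. They were Arid1a (-1.03 ± 0.19) and Arid1b (-0.73 ± 0.14) of the BAF complex, Smarca5, Cecr2 and Baz2a. In the DNA methylation and TET list (14 genes, median -0.05) Tet3 was lower (-0.82 ± 0.18) and Tdg higher (0.51 ± 0.10). Each was 7.14% of the list, against 6.41% lower and 3.45% higher of all genes.

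Several pluripotency genes had more mRNA and lower TE together. Klf4, a transcription factor of the naive state, had RNA of 1788, 1609 and 3080.0 in Nat1+/- and 14431, 12631 and 9024 in Nat1-/-. Its footprints rose as well, from 1042, 811 and 1876 to 3662, 2909 and 3056, but by less (1.45 against 2.51 on the log2 scale). TE was -0.78, -0.99 and -0.72 in Nat1+/-, -1.98, -2.12 and -1.56 in Nat1-/- and -1.62 and -1.39 in WT (-1.06 ± 0.17, adjusted p = 0.0201). Tbx3 showed the same combination (RNA 2.65, footprints 1.87, TE -0.78 ± 0.18). In WT its TE was -0.11 and 0.29, beside the Nat1-/- values of -0.18, -0.10 and 0.42, so that only Nat1+/- stood apart. Klf2 differed, with both assays lower and TE at -0.44 ± 0.09. With Socs3 these were the 4 of 21 naive pluripotency genes called lower (19%, against 6.41% of all genes, median -0.09). Of 14 general pluripotency genes 3 (21.4%) were lower (median -0.13), namely Trim71 (-0.92 ± 0.11, adjusted p = 0.0124), Sall4 (-0.49 ± 0.10) and Foxd3 (-0.73 ± 0.15), each with higher RNA. Of 15 genes of the formative and primed epiblast 3 (20%) were lower (median -0.34). These were Zic2 (-1.30 ± 0.17, adjusted p = 0.0150), Pou3f1 (-0.79 ± 0.10, adjusted p = 0.0124) and Tcf15 (-0.61 ± 0.14). In the endoderm and trophoblast list (19 genes, median -0.15) Eomes (-0.56 ± 0.12) and Gata4 (-1.44 ± 0.34) were lower (10.5%). Gata4 rested on few reads, with RNA of 17.96, 14.4 and 21.41 normalised reads in Nat1+/- against 21.22, 34.64 and 38.76. It was called in 3 of the 7 edgeR fits and Eomes in none.

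Genes of mRNA decay and of cap binding were called in both directions, beside 6.41% of all genes called lower and 3.45% called higher. Of 38 genes of mRNA decay and deadenylation 6 (15.8%) had lower TE and 1 higher, median -0.11. The lower ones were Cnot11, Pan3, Ago2, Rc3h1 and the genes of the AU-rich element binding proteins Zfp36l1 and Zfp36l2, and Tnrc6a was higher. Zfp36l2 had footprints of 613, 359.5 and 634 in Nat1+/- and 619, 547 and 665 in Nat1-/- with RNA of 829.5, 488 and 842 against 3062, 1988 and 1533 (TE -1.36 ± 0.29, adjusted p = 0.0350). Patl1, which encodes a decapping activator, had TE of 0.51, 0.72 and 0.74 against -1.63, -1.12 and -0.32 (-1.69 ± 0.32, adjusted p = 0.0270). In the eIF4 family and its cap-binding partners (21 genes, median 0.10) 2 genes moved in each direction. Lower were Larp1 (-0.92 ± 0.19, adjusted p = 0.0324), whose protein binds the start of ribosomal protein mRNAs, and Mknk2 (-1.23 ± 0.29, adjusted p = 0.0416), an eIF4E kinase. Higher were Eif4b (0.80 ± 0.13, adjusted p = 0.0210) and Eif4a2 (0.80 ± 0.15, adjusted p = 0.0269), a cofactor and a paralogue of the helicase eIF4A.

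The remaining genes with the most negative differences had varied roles. Adgrl1, an adhesion G protein-coupled receptor gene, had RNA that overlapped between genotypes (4529, 3944 and 5136 against 4436, 4539 and 3915) and footprints that did not (1262, 1060.0 and 1589 against 376, 330.4 and 399.8 normalised reads), for a TE difference of -1.73 ± 0.16 (adjusted p = 0.0119). Slc6a8, the creatine transporter gene, had RNA of 1438, 875 and 1434 against 9789, 7900.0 and 4331 and footprints of 985, 607 and 906 against 1802, 1339 and 1250.0, so both rose and TE differed by -1.69 ± 0.20 (adjusted p = 0.0124). Hipk2 (-1.65 ± 0.31), Rnf19b (-1.61 ± 0.14), Nectin1 (-1.56 ± 0.29) and Bcr (-1.56 ± 0.19) completed the 12 most negative. Tgfb2 was among them at -1.93 ± 0.48 (adjusted p = 0.0477) on few reads, with 3, 36 and 12 total RNA reads in Nat1+/- and 29, 9 and 6 in Nat1-/-.

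Genes of the translation machinery were among those with higher TE in Nat1-/- than in Nat1+/-. Ribosomal protein mRNAs and those of several elongation and initiation factors begin with a cytidine followed by a run of pyrimidines, the terminal oligopyrimidine (TOP) tract, through which mTORC1 and the protein LARP1 regulate their translation as a group. Of 82 cytosolic ribosomal protein genes, 17 (20.7%, against 3.45% of all genes) had higher TE and none lower, and the median difference was 0.82. TE lay above 0 difference for 81 of the 82, against 6648 of all 12933 genes tested. The groups did not overlap, on the higher side, for 69 of the 82, against 2389 of all genes (18.5%). The median footprint difference was 0.67 and the median RNA difference -0.14. Of 19 other TOP mRNAs 10 (52.6%) had higher TE, none lower, with a median of 0.72. The size varied between the Nat1-/- cultures. Relative to each gene's Nat1+/- mean, the ribosomal protein median stood at 1.36, 0.76 and 0.32 for B12, B2 and C3, and 1.09 and 0.76 in WT, while A7, B4 and C1 lay between -0.07 and 0.07. The Nat1+/- cultures were thus the low ones, and C3 lay below both WT cultures. The list's count was 0 in limma without A7, B4, C1 or B2, 4 without B12 and 64 without C3, and 59 in edgeR with all cultures, between 14 and 74 leaving out 1. With TMM scaling it was 8.

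The sequences around the annotated transcript start of members with higher TE are shown because the TOP tract defines the group. Each window has 15 bases on either side of the start, from RefSeq (GRCm38.p6), and capitals mark a C followed by at least 4 C or T bases that begins within 5 bases of the start.
Rpl22l1 (chr3:28805493-28805522, plus strand): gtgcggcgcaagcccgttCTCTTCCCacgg
Rpl14 (chr9:120571502-120571531, plus strand): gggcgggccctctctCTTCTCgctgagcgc
Rps24 (chr14:24490663-24490692, plus strand): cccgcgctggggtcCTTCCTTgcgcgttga
Eef1a1 (chr9:78481710-78481739, minus strand): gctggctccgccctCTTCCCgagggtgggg
Eif3f (chr7:108934400-108934429, plus strand): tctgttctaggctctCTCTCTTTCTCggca
Nap1l1 (chr10:111473212-111473241, plus strand): ggcgggctctcgggtCTTTTTTagcgccat
Rps7 (chr12:28635939-28635968, minus strand): gcttccggtttccacccacctacttccgct
Eif4b (chr15:102073758-102073787, plus strand): ggtcttcccgtcggacgccgcgccaccccc
The first 6 hold such a tract at the start shown. Rps24 has a second annotated start in the table, whose window (chr14:24490738-24490767, plus strand) holds none. In the windows of Rps7 and Eif4b none begins within 5 bases of the start annotated there. Both windows do hold a C followed by at least 4 C or T bases farther from that start, which is not marked. For comparison, the windows of 2 genes with lower TE are shown, and they hold no such tract.
Sos1 (chr17:80480439-80480468, minus strand): gttgcgagcaggttcagtttgctagtagga
Map3k3 (chr11:106084572-106084601, plus strand): cgcgcccagcggtttgtttttcggagcgtt
A tract was found for 30 of the 61 ribosomal protein genes and 6 of the 13 other TOP genes that had an entry, and for 5718 of the 27025 genes of the whole table (21.2%). Only 74.4% of the ribosomal protein genes had an entry, so the shares are not compared.

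Among single members, Rpl22l1, a paralogue of the ribosomal protein gene Rpl22, had RNA of 4064, 3363 and 3506 in Nat1+/- and 4546, 4770.0 and 4568 in Nat1-/-. Its footprints rose from 1578, 1554 and 1628 to 5755, 4735 and 3465. TE was -1.36, -1.11 and -1.11 in Nat1+/-, 0.34, -0.01 and -0.40 in Nat1-/- and 0.13 and 0.03 in WT (1.17 ± 0.19, adjusted p = 0.0200). Rps7 had nearly level RNA (14738, 13212 and 14326 against 13336, 14518 and 12064) and footprints of 4132, 3682 and 5473 against 17621, 14006 and 5638, so that C3 lay close to C1, and the difference was 1.44 ± 0.36 (adjusted p = 0.0477). Rps27a (0.99 ± 0.11, adjusted p = 0.0124), Rps24 (1.11 ± 0.21, adjusted p = 0.0280) and Rpl14 (0.91 ± 0.15, adjusted p = 0.0205) had the smallest p-values besides Rpl22l1. Eef1a1, the elongation factor that delivers aminoacyl-tRNA, had RNA of 129728, 108462 and 121790.0 against 102526, 117302 and 112241. Its footprints were 29493, 25656 and 37633 in Nat1+/- and 83337, 76287 and 44977 in Nat1-/- (TE 1.22 ± 0.26, adjusted p = 0.0349). The histone chaperone gene Npm1 reached its difference (0.87 ± 0.14, adjusted p = 0.0200) with less RNA, 58833, 72758 and 58568 against 48511, 45595 and 42021, and no called footprint difference. Of 38 initiation factors outside the eIF4 family 5 (13.2%, against 3.45% of all genes) had higher TE, median 0.25. They were the eIF3 subunits Eif3a (0.64 ± 0.08, adjusted p = 0.0124), Eif3f, Eif3h and Eif3m, and Eif2a. Many ribosomal protein genes, Eef1a1, Npm1 and Hnrnpa1 have near-identical processed copies elsewhere in the genome, and how reads that match several places were counted is not stated in the notes or labels, so their levels are uncertain.

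Chaperones had a larger share of higher calls than the 3.45% of all genes. Of 19 chaperonin and heat shock genes 9 (47.4%) had higher TE and none lower, with a median of 0.39. Hspa8, the constitutive HSP70, had TE of -0.95, -0.93 and -0.95 in Nat1+/-, -0.03, -0.42 and -0.25 in Nat1-/- and -0.68 and -0.67 in WT (0.71 ± 0.11, adjusted p = 0.0202). Its footprints overlapped (6960.0, 9097 and 7717 against 11573, 8229 and 6312) and its RNA was lower (13410.0, 17284 and 14871 against 11813, 10985 and 7525). Hsp90ab1 (0.59 ± 0.11), Hspa9 (0.41 ± 0.08) and the chaperonin subunit gene Tcp1 (0.50 ± 0.10) were among the others. The list's median RNA difference was -0.40 and its median footprint difference -0.04. In limma its count of higher genes was 0 without A7, B4, C1 or B2, 1 without B12 and 8 without C3. With TMM scaling the count was 5, and without the pairing of libraries 0. In edgeR it was 11 with all cultures and between 3 and 14 leaving out 1. Of 31 SR and hnRNP splicing factors 4 (12.9%) were higher, median 0.18, namely Hnrnph3, Hnrnpm, Hnrnpa1 and Hnrnpc. Among 20 cytosolic aminoacyl-tRNA synthetases Nars (0.47 ± 0.08) and Qars (0.89 ± 0.17) were higher (10%), median 0.20. In the list of ATF4 targets and genes with upstream reading frames, 2 of 22 were higher (median 0.09), which were Nars and the serine synthesis gene Psat1 (0.43 ± 0.10).

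Mitochondrial and proteasome lists had few calls. The median was 0.28 for 91 nuclear-encoded respiratory chain genes, of which 3 (3.3%, near the 3.45% of all genes) were called higher, namely Atp5g3, Cox4i1 and Ndufa10. It was 0.21 for 76 mitochondrial ribosomal protein genes (3 higher, 3.95%, namely Mrpl19, Mrpl50 and Mrps33) and 0.23 for 39 proteasome subunits (3 higher, 7.69%, namely Psma3, Psma5 and Psmd7). The 8 mitochondrially encoded mRNAs, which are translated on mitochondrial ribosomes, had a median of -0.40 and no call by limma, edgeR or DESeq2 with all cultures (0 at an unadjusted p under 0.05). In edgeR fits without 1 culture mt-Nd4 and mt-Nd5 were called in 2 of the 7 fits and mt-Cytb in 1, and their median moved between -0.84 and 0.05 when 1 culture was left out. The 60 replication-dependent histone genes had a median of 0.54 with 3 higher (Hist1h2an, Hist1h4n and Hist1h2ah) and 1 lower (Hist1h2ba). Histone genes are near-identical in sequence and their mRNAs lack poly(A), so single members are uncertain.

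**Figure D4:**
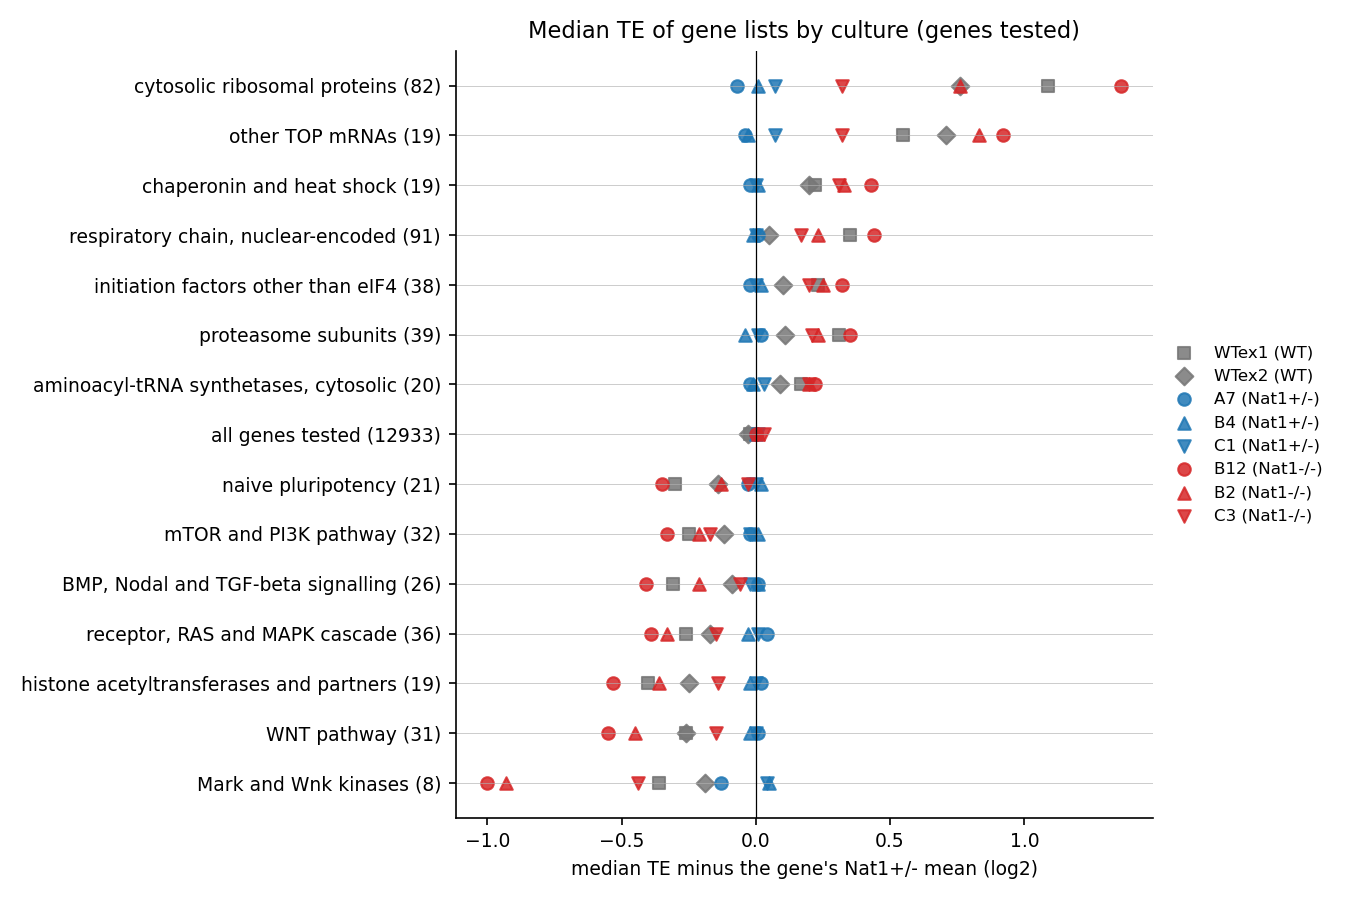
Median over the members of each list (number tested in parentheses) of TE minus the gene's Nat1+/- mean (log2), 1 symbol per culture. Nat1-/- (red) lay right of Nat1+/- (blue) for the lists of the translation machinery and chaperones and left for the signalling lists, and WT (grey) usually lay between or beside Nat1-/-.

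Cell cycle and survival genes were called in both directions, beside 6.41% of all genes called lower and 3.45% called higher. Of 30 cyclins and cyclin-dependent kinases 4 (13.3%) had lower TE, median -0.11, namely Cdk6 (-1.06 ± 0.17), Cdk12, Cdk13 and Ccnd2. In the p53 and BCL2 list (27 genes, median 0.00) Apaf1 and Ccng1 (-0.76 ± 0.12) were lower (7.41%) and 3.7% were higher, both near the shares of all genes. Bcl2l2, the gene of the survival factor BCL-W, was higher with TE of -5.46, -5.62 and -5.35 in Nat1+/- and -4.23, -3.31 and -3.89 in Nat1-/-. Its footprints were few, 13.01, 11.1 and 13.6 normalised reads against 36.7, 55.1 and 49.0, on RNA of 614, 595 and 598 against 709, 556 and 738 (TE 1.66 ± 0.26, adjusted p = 0.0194). Among 335 genes named Zfp, 12 were lower (3.58%) and 3 higher (0.896%), median -0.01, both below the shares of all genes. Of 26 imprinted genes 3 (11.5%) were lower, namely Peg10 (-1.05 ± 0.23), Plagl1 and Gnas, and Dlk1 was higher (3.85%), with a list median of 0.21. No gene was called among 8 neuroectoderm genes (median 0.16), 16 polyamine and iron genes (-0.03), 19 glycolysis genes (0.16) or 24 cholesterol synthesis genes (0.08), by limma. In these lists 1, 1, 6 and 8 genes had an unadjusted p under 0.05, edgeR called 1, 1, 5 and 3, and DESeq2 called 1, 1, 6 and 4. Of the cell type markers tested, Gata4 was the only one called by limma with all cultures, among 9 fibroblast (median -0.28), 7 ES cell (-0.04), 3 trophoblast (0.15), 4 primitive endoderm (-0.11) and 4 neural markers (0.21). Of the 7 edgeR fits, Gata4 was called in 3, Tubb3 in 5, Acta2, Vim and Sox2 in 4 and Krt18 in 3.

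The highest TE differences of single genes often rested on very little RNA. Of the 446 genes with higher TE, 39 had 3 reads or fewer in at least 1 of the 12 libraries, and of the 829 with lower TE, 23. Vrtn had 11, 56 and 26 total RNA reads in Nat1+/- and 5, 0 and 0 in Nat1-/-. Prss23 had 11, 77 and 14 against 2, 0 and 0. Sorbs2 had 17, 35 and 39 reads against 17, 2 and 2, while its footprints overlapped at 61.8, 110.4 and 109 against 73.4, 68.4 and 99.1 normalised reads. The TE values of these genes depend on the pseudocount, as do those of Myh6 (1 read each in B2 and C3), Txlnb (2 reads in B2) and Dlk1 (0 reads in B2 and C3), and no fold is given for them. Ldhal6b, a gene of the lactate dehydrogenase family, had more than 3 reads in each of the 12 libraries but few in Nat1+/-. Its footprints were 15.2, 12.2 and 18.9 against 162, 369.5 and 403 normalised reads. Its RNA was 22.9, 21.6 and 34.3 against 95.2, 185 and 228. Its TE was -0.56, -0.78 and -0.83 in Nat1+/-, 0.76, 0.99 and 0.82 in Nat1-/- and -1.58 and -0.66 in WT (1.58 ± 0.22, adjusted p = 0.0159). Psg16 (1.26 ± 0.19, adjusted p = 0.0193), a pregnancy-specific glycoprotein gene with close relatives that could share reads, Dnajb4 (1.22 ± 0.22), a heat shock cochaperone gene, and Ranbp6 (1.19 ± 0.21) completed the highest 12 with Rps7, Eef1a1 and Rpl22l1.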

How the data were processed

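The deposited values are a signal, normalised read counts, each library scaled by its own size factor, made by the authors with DESeq2, per the submitters' processing notes. The tools named there are HTSeq 0.6.1, TopHat2 2.1.0, Bowtie2 2.2.8, cutadapt 1.9.1 and bcl2fastq 2.17, with mm10 and GRCm38.p4. For strand, multi-mapping reads and footprint length, the treatment was not given in the sources used here. Dividing by the value of 1 read gave whole reads for 100% of values within 0.001. Scaling within each assay hides a change shared by most genes. The table held 21977 names, 27 of them date-like and 2 repeated. Where the shallowest library has 0 reads, counting error alone leaves room for 3 reads (4.90 normalised).

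For TE, limma 3.58.1 in R 4.3.3 (eBayes with trend) was run on the per-culture values of 8 cultures with 3 genotype means, a pseudocount of 1 and a mean of at least 10 in each assay. Calls are two-sided at a Benjamini-Hochberg adjusted p under 0.05 over the 12933 genes. RPF and total RNA were fitted likewise. Deviations from the genotype mean correlated between the RPF and total RNA library of each culture (across genes, r from 0.384 to 0.821), and each of the 8 cultures matched its own partner best. Alternatives on the recovered reads used edgeR 4.0.16 and DESeq2 1.42.0 with a culture term. In simulated data for this comparison (12933 genes, 200 changed), 4.48% of 1.5-fold, 55.2% of 2-fold and 89.4% of 4-fold changes were recovered with 13 false calls.

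The members, the 46 gene lists and the tests were chosen with earlier results of these data known. Named were Eif4g2, Sos1 and Map3k3, the 12 lowest and 12 highest differences among calls that had at least 50 as mean in both assays and groups that do not overlap (predicted genes passed over), and up to 4 members per list with the smallest p. Further list members are named where all calls of a list are given. They were chosen after their values were seen, as was leaving out each culture in edgeR. Transcript starts came from a RefSeq table (GRCm38.p6, a later patch than in the notes). Protein lengths were not analysed here. Some members of the lists are counted but not reported here by name.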

Additional observations from a re-analysis of the deposited data

How the results depend on the processing

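All 1275 calls kept their direction in the alternatives in which they were tested. The groups of all 1275 did not overlap, so leaving out cultures in limma could not reverse a direction. For those fits the kept direction is no separate support. The number of calls did not hold, as described with the calls. Counts within lists moved with it. Without A7, B4, C1 or B2, limma called 0 genes of the Mark and Wnk, RAS and MAPK, mTOR and PI3K, acetyltransferase and other TOP lists. In edgeR each of these lists kept calls in every fit. With no minimum on the level, 137 genes were called (28 higher, 109 lower), and with a mean of at least 50, 1695 of 10790. TMM scaling gave 244 higher and equal library sums 279 higher. The 6 mutant cultures alone gave 648 (183 and 465), and the 5 of them with shallow total RNA gave 0, with 3404 genes at an unadjusted p under 0.05. Without the culture pairing 75 were called (4 and 71). In edgeR 1995 genes were called (832 higher) and in DESeq2 2226 (992 higher). Leaving out 1 culture gave between 0 and 2013 calls in limma, 0 to 765 higher and 0 to 1248 lower, and in edgeR between 795 and 2854, 200 to 1285 higher (271 without C1 or without B2) and 584 to 1569 lower. The cause was not tested.

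Same-numbered cultures of the 2 genotypes did not deviate together across genes (r = -0.006, 0.10 and -0.023). Cultures with different numbers were not compared in this way, so whether same-numbered cultures were handled together was not settled. The fit with a replicate block called 0 genes, 0 higher and 0 lower, with 3524 at an unadjusted p under 0.05.

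Reversed directions were seen for named genes that were not called. Dab2 went to -0.20 with a pseudocount of 5. With the 5 shallow cultures, or without B12, Dab2 went to -0.30, Krt8 to -0.00 and Pax6 to -0.13. Over the fits without 1 culture the ranges were -0.30 to 0.61, -0.00 to 0.34 and -0.13 to 0.52. Pax6 went to -0.11 in edgeR without B12, Sox7 to 0.05 without A7 and Sox1 to 0.00 without C1.

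In simulated data 4.48% of 1.5-fold changes were recovered, with far fewer genes changed than the 1275 called here. Of the called genes, 186 lower and 57 higher ones differed at least 2-fold, so most calls were smaller. The simulated shares therefore do not give the sensitivity in these data. A gene that was not called is still not shown to be unchanged.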
